A study of Mus musculus with 17 samples.

Results

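The markers described here are 7 genes that pathologists stain or probe to tell translocation renal cell carcinoma from the clear cell and papillary types: Ctsk, Trim63, Amacr, Car9, Krt7, Vim and Kit. They were chosen as a diagnostic panel and not by their values, and make up 7 of the 35971 genes of the summed tables. All 7 passed the filter on low counts and were among the 17011 genes tested.

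The study sequenced polyA RNA of 17 mouse kidney samples, which fall into 5 groups by genotype. Every mouse carried the lsl-PRCC-TFE3 KI allele at Rosa26, a knock-in of a human renal carcinoma fusion gene behind a stop cassette, so that the controls held the same allele without its activation. The Cre(-) group had no Cre recombinase (n = 4), and replicates 1 and 2 also had HIF1af/f alleles. The other groups carried KSP-Cre, in which the Cadherin 16 promoter directs Cre to kidney epithelial cells: PRCC-TFE3 KI mice with no flox allele (KI, n = 3), with HIF1af/f (Hif1a KO, n = 4), with HIF2af/f (Hif2a KO, n = 3), or with both (DKO, n = 3). Hif1a and Hif2a encode the oxygen-regulated subunits of the hypoxia-inducible factors. Mice of this cross were killed at 8 months of age, but the labels of the libraries give no age. The labels do not say that each library is a separate animal, so p-values measure the spread between these samples. The samples are labelled kidney, a mixture of cells, so that fewer cells of a type and less RNA per cell cannot be told apart.

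Levels are CPM, a gene's count relative to its library's total after scaling by the TMM method, and differences are log2 fold changes with their standard error (SE) from edgeR's quasi-likelihood test. A gene was called when its Benjamini-Hochberg adjusted p was under 0.05 over all genes tested. Genes of the marker lists were called in the same way, but list levels are summed TPM, which follow the highest genes of a list. On the TPM scale (limma on log2(TPM + 1)) the median log2 fold change of KI against Cre(-) was 0.38 over all genes. It was 0.03 by edgeR, so that calls and summed levels are not on the same scale. Library totals ranged from 16504419 to 24668827 counts, and 3 counts, the floor used here, equal 0.117 to 0.206 CPM, which covers counting error only. No sequencing batch is named, and the library numbers largely follow the groups, so that a library order effect and the genotype cannot be told apart. Hif1a RNA in Hif1a KO kidneys was not called against KI (log2 fold change -0.21, adjusted p = 0.372), nor was Epas1, the gene of Hif2a, in Hif2a KO kidneys (-0.33, adjusted p = 0.0788). A gene-level sum can include reads from outside a deleted part, so it does not check the deletion. Tfe3 was higher in KI than in Cre(-) kidneys by 0.65 on the log2 scale, with no overlap between the groups.

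The panel joins proteins of unrelated function. TFE3 belongs to the MiT family of transcription factors, which bind E-boxes and M-boxes in the promoters of lysosomal and melanocytic genes, and cathepsin K and TRIM63 are used in human pathology as readouts of MiT family activity in translocation tumors. AMACR is a stain of papillary carcinoma, carbonic anhydrase IX of clear cell carcinoma through hypoxia-inducible factor, and KIT of chromophobe carcinoma and oncocytoma, while keratin 7 and vimentin sort the types by their filaments.

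The promoter stretches of Trim63 and Car9 are shown because they hold the motifs searched, that of Ctsk because it holds none, and the internal exon of Trim63 because the 2 directions seen for that gene turn on it. Of the 7 members, 6 have a RefSeq promoter of 300 bases (GRCm38.p6, 250 before and 50 after the start). CACGTG (E-box), TCATGTG (M-box core) and ACGTG (a form of the hypoxia response element core, contained in CACGTG) were searched on both strands. These were present in 7.15%, 3.77% and 19.6% of 32851 promoters. Capitals mark a match. Each promoter line is the 120 bases before the start on the plus strand: Trim63 at chr4:134315000-134315119, with the match 51 bases before the start, Car9 at chr4:43506906-43507025, with ACGTG in reverse 18 bases before it, and Ctsk at chr3:95499090-95499209. The exon, at chr4:134319988-134320135 of GRCm38 on the plus strand, is from GENCODE M21.
Trim63: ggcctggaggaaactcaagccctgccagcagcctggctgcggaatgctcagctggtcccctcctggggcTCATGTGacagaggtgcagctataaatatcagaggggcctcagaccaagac
Car9: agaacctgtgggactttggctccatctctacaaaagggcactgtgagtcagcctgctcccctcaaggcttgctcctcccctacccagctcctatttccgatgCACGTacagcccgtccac
Ctsk: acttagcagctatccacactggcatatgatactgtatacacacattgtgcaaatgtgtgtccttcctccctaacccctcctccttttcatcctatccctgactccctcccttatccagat
Trim63-204 first exon: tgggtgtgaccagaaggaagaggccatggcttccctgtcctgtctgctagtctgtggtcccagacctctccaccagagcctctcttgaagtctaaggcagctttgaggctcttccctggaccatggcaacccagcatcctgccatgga
The windows of Ctsk, Krt7, Vim and Kit held none of the 3 motifs, which says only that these letters are not in them. Other forms of the response element core were not searched.

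KI kidneys differed from Cre(-) kidneys in 6 of the 7 markers. Ctsk, Vim and Kit rose, Trim63, Amacr and Car9 fell at the level of the whole gene, and Krt7 was not called. In this comparison 60.9% of all genes tested were called (31.6% higher and 29.3% lower), and so many calls leave little to read from the count of 6 of 7. The same 6 did not overlap between the groups, as 56.6% of all genes did not. The median log2 fold change was 0.12 over the markers and 0.03 over all genes tested. The 6 calls stayed with each of the 7 libraries left out in turn. When only protein-coding transcripts were summed, Trim63 was called in the opposite direction.

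**Figure D1:**
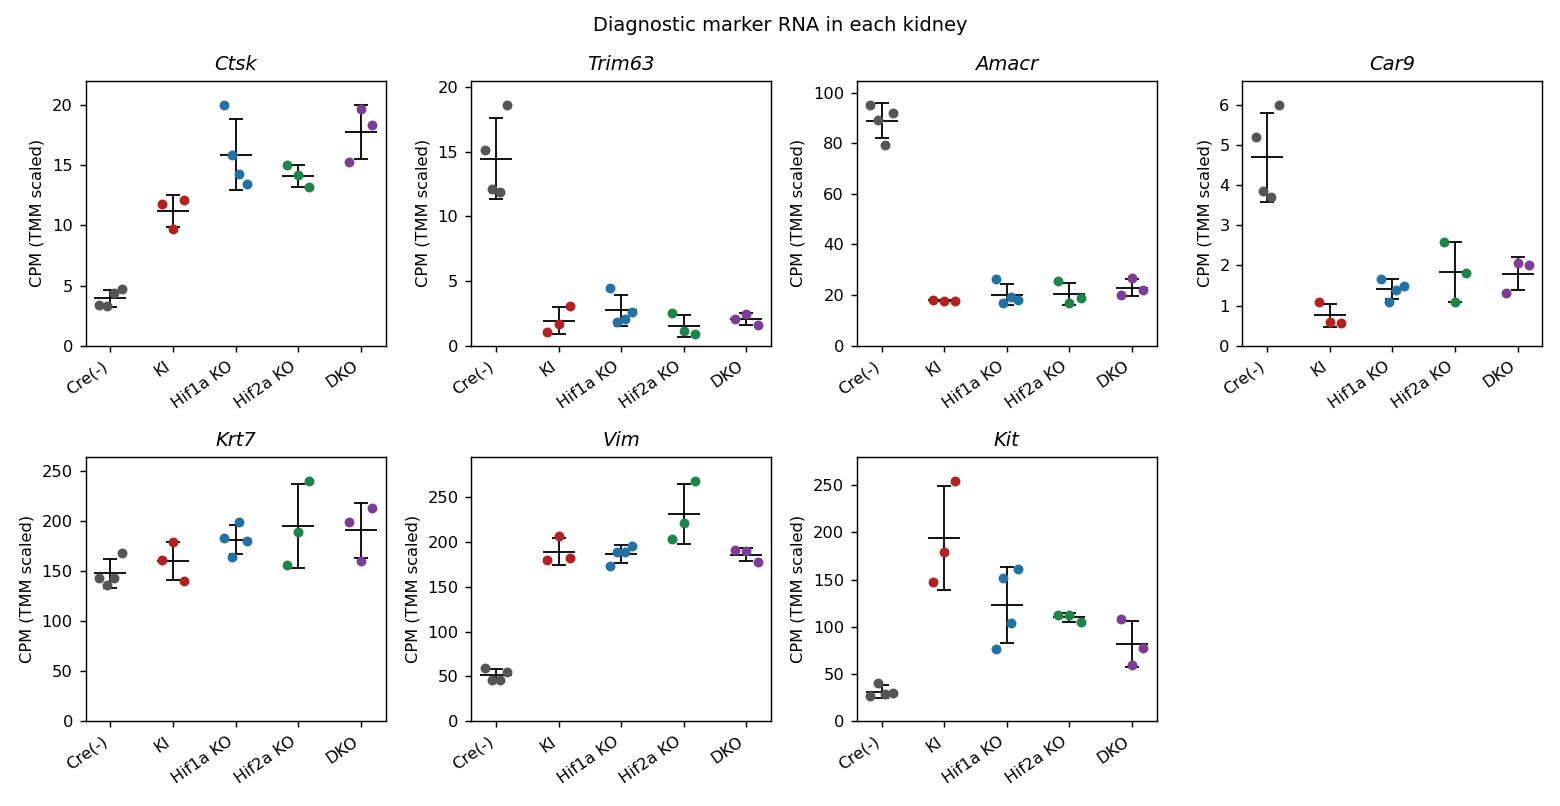
CPM of each marker (y axis, linear from 0, one panel per gene) in each kidney of the 5 groups (x axis). Points are libraries, the long horizontal bars are group means and the error bars the SD. Trim63, Amacr and Car9 sit highest in the 4 Cre(-) kidneys, Ctsk and Vim lowest there, and Kit is highest in KI kidneys, with a mean of 194 CPM.

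Ctsk encodes cathepsin K, a lysosomal cysteine protease best known from osteoclasts, where it degrades collagen (chromosome 3, 95499256 to 95509362, plus strand, GRCm38). The Cre(-) level was 3.36, 3.32, 4.37 and 4.74 CPM, against 11.8, 9.69 and 12.1 CPM with the fusion (KI). All KI kidneys were above all Cre(-) kidneys, and the difference was 2.84-fold (log2 fold change 1.50 ± 0.16 SE, adjusted p = 1.16e-06). The counts behind these values were 49 to 75 per Cre(-) library and 180 to 212 per KI library, all of 1 annotated transcript. Hif1a KO kidneys had 20.0, 15.9, 14.2 and 13.4 CPM. Hif2a KO kidneys had 15.0, 14.2 and 13.2 CPM, and DKO kidneys 15.3, 19.7 and 18.4 CPM. Every kidney of the 3 knockout groups was above every KI kidney, though only DKO was called.

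Ctsk was a small part of its family by level per length. It held a mean of 0.207% of the summed TPM of 14 cathepsins in Cre(-) kidneys and 0.0904% in KI kidneys. Of 13 cathepsins tested, 9 rose and 2 fell in KI against Cre(-), with a median log2 fold change of 1.12. Ctsl, a broad lysosomal endopeptidase, went from 406 ± 19 to 7391 ± 716 CPM (SD, n = 4 and n = 3), and Ctss, a cathepsin of antigen-presenting cells, from 23.0 ± 3.6 to 115 ± 25 CPM. Ctsf and Ctsh, the members that fell, changed by -0.75 and -0.52 on the log2 scale, and on the TPM scale Ctsh was not called (-0.08, adjusted p = 0.301). Of the osteoclast markers 0 of 5 tested rose and 1 fell, with a summed level of 55.1 to 67.8 TPM in Cre(-) and 41.6 to 65.0 TPM in KI kidneys. The osteoclast list shares Atp6v0d2 with the list of intercalated cells, so that its sum is not particular to osteoclasts. Macrophage markers rose in 7 of 8, with a median log2 fold change of 2.28. Their summed level, which rose by more than that median, was 136 to 179 TPM in Cre(-) and 2345 to 2662 TPM in KI kidneys. Fibroblast markers rose in 5 of 7 (median 1.20), from 70.4 to 83.0 TPM to 252 to 275 TPM. The part of these lists in the Ctsk values was not tested.

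Trim63 encodes MuRF1, a RING ubiquitin ligase known for the breakdown of sarcomere proteins in muscle atrophy (chromosome 4, 134315120 to 134329629, plus strand). As a whole gene it was at 15.2, 12.2, 11.9 and 18.6 CPM without Cre, and the KI values were 1.03, 1.67 and 3.08 CPM. Each KI kidney was below each Cre(-) kidney, and the level fell by 86.6% (log2 fold change -2.90 ± 0.42 SE, adjusted p = 2.40e-05). Hif1a KO kidneys had 4.48, 1.82, 2.09 and 2.58 CPM, Hif2a KO kidneys 2.51, 1.09 and 0.911 CPM, and DKO kidneys 2.09, 2.48 and 1.61 CPM. These 3 groups overlapped the KI group.

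The annotated transcripts of Trim63 went in opposite directions. Trim63-204, annotated as a processed transcript without a coding sequence (1428 nt in 7 exons), begins at the internal exon shown above, which lies between exons 3 and 4 of the coding forms, and shares the exons after it. It carried 219, 226, 175 and 295 of the estimated counts in the Cre(-) kidneys but 9.76, 10.6 and 13.6 in the KI kidneys. The coding transcripts, Trim63-201 and Trim63-202, start at the promoter with the M-box core and use 3 exons that Trim63-204 lacks. They carried 0, 0, 3.96 and 0 counts in Cre(-) kidneys and 7.01, 19.4 and 39.4 in KI kidneys. The form with the internal start was thus nearly all of the Cre(-) signal, and the coding forms held 38.9% to 73.0% of the KI signal.

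Coding Trim63 was also counted in most kidneys of the knockout groups. It had 32.3, 31.7, 7.91 and 22.7 estimated counts in Hif1a KO, 7.91, 5.10 and 3.96 in Hif2a KO, and 11.9, 20.1 and 0 in DKO kidneys. DKO replicate 3 was at 0, and the Hif2a KO kidneys were at the low end. A fit on protein-coding transcripts alone, chosen after the data were seen, gave a log2 fold change of 4.14 ± 1.14 SE for KI against Cre(-) (adjusted p = 0.00529) and 2.99 ± 1.20 SE for DKO against Cre(-) (adjusted p = 0.0449). Such fitted values depend on the prior count where a group is near 0 and are not bounds. The counts are few, and reads in shared exons were divided between transcripts by estimation, so that the split is less certain than the total.

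**Figure D2:**
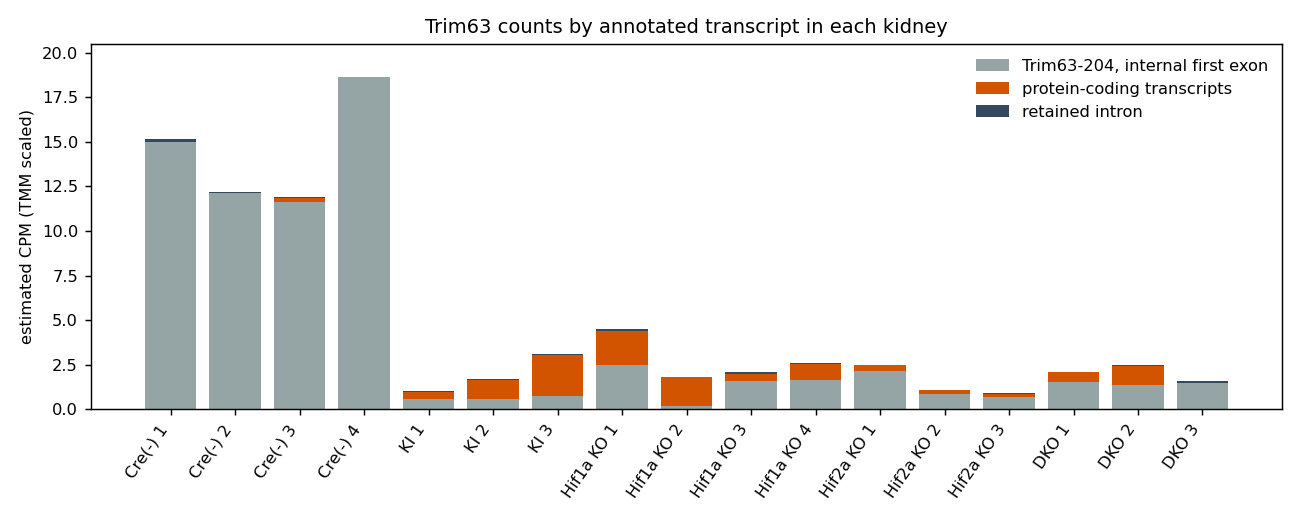
Estimated CPM of Trim63 (y axis, linear from 0) in each of the 17 kidneys (x axis), stacked by annotated transcript. The tall bars of the Cre(-) kidneys are almost wholly the form with the internal first exon (11.6 to 18.6 CPM), while the coding forms reach 2.25 CPM in KI replicate 3.

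Of the 6 MuRF and atrophy ubiquitin ligases, 4 were tested, and 1 rose and 2 fell, Trim63 as a whole gene among them, in KI against Cre(-) kidneys. Fbxo32, which encodes atrogin-1, the other classical atrophy ligase, went from 5.15 ± 0.38 to 48.5 ± 0.5 CPM (SD), and Fbxo40, a muscle F-box gene, from 20.1 ± 3.1 to 1.85 ± 0.12 CPM. Striated muscle markers stayed low, at 3.2 to 5.8 TPM summed over 7 genes in Cre(-) and 4.7 to 6.9 TPM in KI kidneys. Of these, 1 of 2 tested rose, and Myh4 and Tnnc2, genes of fast fibres, were at 0 in all KI kidneys.

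Amacr encodes alpha-methylacyl-CoA racemase, which prepares branched-chain fatty acids and bile acid intermediates for peroxisomal oxidation (chromosome 15, 10981756 to 10996626). Its Cre(-) levels were 95.1, 89.3, 79.2 and 92.1 CPM, and those of KI kidneys 18.2, 17.7 and 17.8 CPM. The KI kidneys were nearly equal to each other and all below the controls, a fall by 79.9% (log2 fold change -2.31 ± 0.16 SE, adjusted p = 1.73e-08). It had 26.2, 16.8, 19.3 and 18.1 CPM in Hif1a KO, 25.4, 16.9 and 18.9 CPM in Hif2a KO, and 20.1, 26.8 and 22.0 CPM in DKO kidneys. All DKO kidneys were above all KI kidneys without a call, and the first 2 groups overlapped KI. The coding transcript Amacr-201 held 59.8% to 72.1% of the counts of any library, so that both forms moved together.

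The peroxisomal branched-chain list holds 14 genes, Amacr included. All 14 were tested and fell in KI against Cre(-), with a median log2 fold change of -1.64, and Amacr kept its share of the summed TPM of the list, with a mean of 2.04% in Cre(-) and in KI. Acox2, the branched-chain acyl-CoA oxidase, went from 144 ± 13 to 6.03 ± 1.28 CPM (SD), and Slc27a2, a very long chain acyl-CoA synthetase, from 3804 ± 164 to 365 ± 69 CPM. Proximal tubule markers, 7 of 7 lower, fell from 3595 to 4062 TPM summed in Cre(-) to 316 to 382 TPM in KI kidneys, and were at 453 to 961 TPM in Hif1a KO, 404 to 813 TPM in Hif2a KO and 593 to 879 TPM in DKO kidneys. Their part in the Amacr values was not tested.

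Car9 encodes carbonic anhydrase IX, a membrane enzyme that hydrates carbon dioxide at the cell surface and is a classical target of hypoxia-inducible factor (chromosome 4, 43506966 to 43513729). Control kidneys gave 5.21, 3.85, 3.71 and 6.00 CPM, and KI kidneys 1.09, 0.592 and 0.571 CPM. Every KI kidney was below every control, and the level fell by 83.9% (log2 fold change -2.63 ± 0.34 SE, adjusted p = 7.78e-06). The KI values rest on 19, 11 and 10 counts, of which the coding transcript carried 11.9, 0 and 0. Hif1a KO kidneys had 1.67, 1.09, 1.39 and 1.48 CPM, Hif2a KO kidneys 2.59, 1.09 and 1.82 CPM, and DKO kidneys 1.32, 2.05 and 2.00 CPM. All knockout kidneys were below the controls, and the lowest of Hif1a KO and of Hif2a KO were level with the highest KI kidney. Reads of Car9 and of Gm12454, an antisense gene that overlaps its start on the opposite strand, could be mixed, because the strand setting of the counting is not given in the sources used here.

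**Figure D3:**
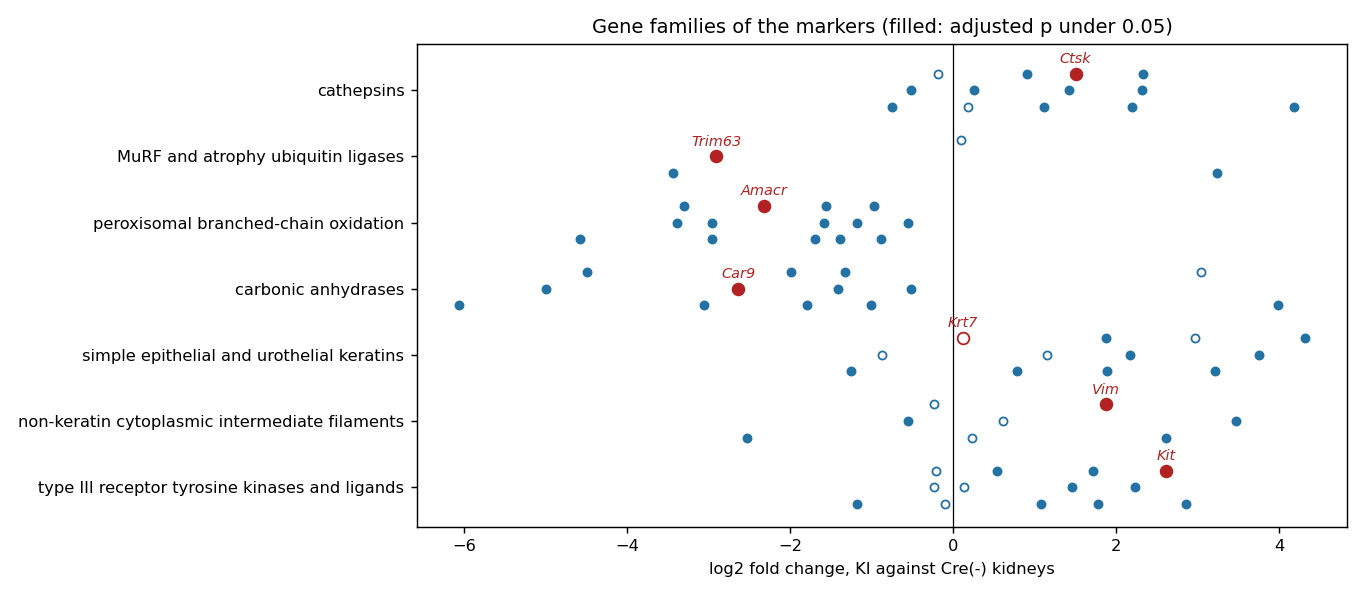
Log2 fold change of KI against Cre(-) kidneys (x axis) for the tested genes of 7 families (rows), with the markers in red. Filled points were called at an adjusted p under 0.05, and the vertical spread within a row only separates points. All 14 peroxisomal genes lie left of 0, and Krt7 is the one open red point.

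Of 13 carbonic anhydrases tested, 11 fell and 1 rose in KI against Cre(-) kidneys, with a median log2 fold change of -1.79. Car14, a membrane-bound enzyme of the tubule, went from 88.9 ± 14.4 to 1.34 ± 0.65 CPM (SD), and Car5a, a mitochondrial enzyme, from 11.0 ± 2.3 to 0.339 ± 0.322 CPM. Car13, a cytosolic enzyme, was the member that rose, from 3.00 ± 0.58 to 47.8 ± 3.8 CPM. Car9 was a minor member by level per length, at a mean of 0.631% of the summed TPM of 16 carbonic anhydrases in Cre(-) and 0.433% (0.0878% to 0.830%) in KI kidneys. The summed TPM of the list ranged from 239 to 1097 over KI kidneys. Adipocyte markers, which rose in 5 of 7, were at 136, 3120 and 276 TPM summed in KI replicates 1, 2 and 3, so that replicate 2 stood apart. In Cre(-) kidneys they were at 9.67 to 109 TPM, and their part in the carbonic anhydrase values was not tested.

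Krt7 encodes keratin 7, a filament protein of simple ductal epithelia (chromosome 15, 101411043 to 101430313). Krt7 was at 143, 136, 143 and 168 CPM in the controls, and at 161, 179 and 140 CPM where the fusion was active (KI). The groups overlapped, and the difference was smaller than the spread (log2 fold change 0.12 ± 0.14 SE, adjusted p = 0.483). On the TPM scale, where the median of all genes was 0.38 rather than 0.03, Krt7 was called higher by 0.53 (limma on log2(TPM + 1), adjusted p = 0.00605). It had 183, 164, 199 and 180 CPM in Hif1a KO, 156, 189 and 240 CPM in Hif2a KO, and 199, 160 and 213 CPM in DKO kidneys. The coding transcripts held 24.9% to 30.4% of its counts, most of the rest being assigned to a retained intron form, and the antisense gene Gm671 overlaps it on the opposite strand, with the same limit as for Car9.

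Of 12 simple epithelial and urothelial keratins tested, 7 rose, 1 fell and 4 were not called in KI against Cre(-), with a median log2 fold change of 1.88. Krt19, a keratin of ducts, went from 5.83 ± 0.81 to 53.8 ± 23.9 CPM (SD), and Krt20, a keratin of urothelial umbrella cells, from 0.791 ± 0.222 to 10.7 ± 4.4 CPM. Krt80 was the one that fell, from 26.8 ± 6.85 to 11.2 ± 1.0 CPM. The share of Krt7 in the summed TPM of 13 keratins went from a mean of 47.0% to 26.9%. Urothelial markers rose in 6 of 6, from 12.3 to 21.1 TPM summed in Cre(-) to 24.3 to 199 TPM in KI kidneys. Of 5 collecting duct markers 1 rose and 4 fell, with a median log2 fold change of -1.28. Their summed level was 328 to 433 TPM in Cre(-) and 314 to 392 TPM in KI kidneys. The part of either list in the keratin values was not tested.

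Vim encodes vimentin, the filament protein of mesenchymal cells, also made by injured or dedifferentiated tubules (chromosome 2, 13573927 to 13582826). The controls had 59.9, 45.6, 45.8 and 54.5 CPM of Vim, and the KI values were 179, 207 and 182 CPM. All KI kidneys were above all controls, by 3.68-fold (log2 fold change 1.88 ± 0.11 SE, adjusted p = 2.89e-09). It had 173, 189, 188 and 195 CPM in Hif1a KO, 203, 221 and 268 CPM in Hif2a KO, and 190, 189 and 177 CPM in DKO kidneys. Hif1a KO and DKO kidneys fell within or near the range of KI, and Hif2a KO kidneys reached above it.

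Of 8 other-than-keratin filament genes tested, Vim included, 3 rose and 2 fell in KI against Cre(-) kidneys, and Vim went from a mean of 60.7% to 84.0% of the summed TPM of that list. Synm, which encodes synemin, a partner of vimentin and desmin, rose from 3.61 ± 0.43 to 40.0 ± 6.2 CPM (SD). The fibroblast and macrophage markers given above for Ctsk moved in the same direction. Endothelial markers were lower in 4 of 6, with a median log2 fold change of -0.61. Their summed level was 128 to 199 TPM in Cre(-) and 156 to 162 TPM in KI kidneys. The part of these lists in the Vim values was not tested.

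Kit encodes the receptor tyrosine kinase for stem cell factor, known from mast cells, melanocytes and, in the kidney, tubular cells (chromosome 5, 75574916 to 75656722). Kit stood at 26.5, 40.9, 28.7 and 30.2 CPM in the controls, while KI kidneys reached 148, 180 and 255 CPM. The KI kidneys varied more than the controls but were all higher, by 6.14-fold (log2 fold change 2.62 ± 0.26 SE, adjusted p = 5.45e-07). It had 76.3, 152, 104 and 161 CPM in Hif1a KO, 113, 113 and 105 CPM in Hif2a KO, and 108, 60.0 and 77.2 CPM in DKO kidneys. All 3 DKO and all 3 Hif2a KO kidneys were below every KI kidney and above every Cre(-) kidney.

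Kitl, the gene of stem cell factor and so the ligand of Kit, was named after its values were seen. It had means of 41.4 ± 4.4 CPM in Cre(-), 113 ± 35 CPM in KI, 143 ± 18 CPM in Hif1a KO, 74.0 ± 4.3 CPM in Hif2a KO and 73.6 ± 12.5 CPM in DKO kidneys (SD). It was higher in KI than in Cre(-) by 1.45 ± 0.18 SE on the log2 scale (adjusted p = 4.01e-06). Hif1a KO exceeded Hif2a KO kidneys by 0.95 (adjusted p = 0.0336), a call lost with any of the 4 Hif1a KO libraries or Hif2a KO replicates 2 or 3 left out (adjusted p = 0.0579 to 0.173) on the TPM scale (0.118) and with the replicate block (0.110).

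Of 13 type III receptor tyrosine kinases and ligands tested, 8 rose and 1 fell in KI against Cre(-) kidneys, with a median log2 fold change of 1.08. Il34 and Csf1, the ligands of the macrophage receptor Csf1r, rose from 6.35 ± 0.44 to 46.2 ± 6.2 CPM and from 15.0 ± 1.0 to 70.9 ± 2.4 CPM (SD), and Pdgfc, a platelet-derived growth factor, fell from 14.8 ± 2.6 to 6.50 ± 1.04 CPM, a call lost when only coding transcripts were summed (adjusted p = 0.0722). The summed level of the 8 genes of the mast cell list was 75.5 to 137 TPM in Cre(-) and 13.5 to 20.6 TPM in KI kidneys. Only 3 of the 8 passed the filter on low counts, and of these 2 fell and 1 rose. Tpsab1, a tryptase gene, was at 0 in all Cre(-) kidneys. The sum thus follows few genes and does not measure the number of mast cells. Intercalated cell markers fell in 4 of 5, from 110 to 131 TPM summed to 39.0 to 63.6 TPM. The part of either list in the Kit values was not tested.

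DKO kidneys carried KSP-Cre and floxed alleles of both factors, with the deletion not checked here. They were called against Cre(-) kidneys in 7 of 7 markers (58.3% of all genes tested were called, 30.4% higher and 27.9% lower). In 6 the groups did not overlap (59.3% of all genes). This comparison shares its controls with the one above. Ctsk was higher by 2.17 ± 0.16 SE on the log2 scale, Vim by 1.85 ± 0.11 SE and Kit by 1.37 ± 0.26 SE. Trim63 as a whole gene was lower, at -2.81 ± 0.42 SE, with the opposite direction in its coding transcripts as given above. Amacr was lower at -1.95 ± 0.16 SE. Car9 was lower at -1.39 ± 0.31 SE, and this call was lost on the TPM scale (-0.54, adjusted p = 0.135) and with coding transcripts only (-1.35, adjusted p = 0.0717). Krt7 was higher at 0.37 ± 0.14 SE (adjusted p = 0.0313) although the groups overlapped. The Krt7 call was lost without Cre(-) replicate 1, 2 or 3 or DKO replicate 1 or 3 (adjusted p = 0.0627 to 0.138). It was also lost with the 2 Cre(-) libraries labelled with no flox allele as the only controls (0.171).

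Each single knockout group was compared with KI kidneys, which all 3 knockout comparisons share. Against KI, 0 of 7 markers were called in Hif1a KO (5.44% of all genes tested) and 0 of 7 in Hif2a KO kidneys (1.39%) by edgeR. At an unadjusted p under 0.05 there were 3 and 3 markers, beside 22.1% and 19.2% of all genes. Groups did not overlap in 1 marker for Hif1a KO (19.3% of all genes) and in 3 for Hif2a KO (20.2%). The 3 were Ctsk, Kit and Car9. For Car9 the lowest Hif2a KO kidney (1.094 CPM) was above the highest KI kidney (1.092 CPM) by less than the floor. DESeq2 called 1 in Hif1a KO (Ctsk, adjusted p = 0.0328) and 2 in Hif2a KO (Car9, 0.0299, and Kit, 0.0479), and of all genes 9.79% and 5.97%. The differences nearest to a call were Ctsk in Hif1a KO (0.50 ± 0.16 SE on the log2 scale, adjusted p = 0.0721) and Car9 in Hif2a KO kidneys (1.28 ± 0.35 SE, adjusted p = 0.0736). The latter was called without KI replicate 1 (1.65, adjusted p = 0.0290), in a fit that called 4.96% of all genes. Kit was lower in both, by the values -0.65 ± 0.25 SE in Hif1a KO and -0.82 ± 0.27 SE in Hif2a KO, with neither called.

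In DKO kidneys 3 of 7 markers were called against KI (12.7% of all genes tested, 6.53% higher and 6.19% lower). Ctsk was higher by 0.67 ± 0.17 SE on the log2 scale (adjusted p = 0.0182) and Car9 by 1.25 ± 0.35 SE (adjusted p = 0.0329), and Kit was lower at -1.25 ± 0.28 SE (adjusted p = 0.0110). Groups did not overlap for these 3 and for Amacr (0.36 ± 0.17 SE, adjusted p = 0.165), as they did not for 33.7% of all genes. Amacr was called on the TPM scale (0.46, adjusted p = 0.0464). Vim (-0.03 ± 0.12 SE), Krt7 (0.25 ± 0.15 SE) and Trim63 (0.09 ± 0.44 SE) were not called. Kit and Car9 thus lay nearer to the Cre(-) level in DKO than in KI kidneys, while Ctsk lay farther from it.

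Each of these 3 calls rested on single libraries. That of Ctsk was lost without KI replicate 2 (adjusted p = 0.0654), DKO replicate 2 (0.0843) or DKO replicate 3 (0.0635). That of Car9 was lost without KI replicate 2 (0.0997) or 3 (0.124), DKO replicate 2 (0.115) or 3 (0.101), and in a fit of the 2 groups alone (0.0833) or on the TPM scale (0.219). That of Kit was lost without KI replicate 3 (0.0547), DKO replicate 2 (0.0601) or DKO replicate 3 (0.0504). The direction held in every one of these fits. Fewer of all genes were also called without KI replicate 2 (8.67%), KI replicate 3 (5.29%), DKO replicate 2 (4.18%) or DKO replicate 3 (4.57%). The share was 13.2% without KI replicate 1 and 12.0% without DKO replicate 1, beside 12.7% with all libraries.

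Several marker lists also differed between DKO and KI kidneys. Fibroblast markers rose in 5 of 7, from 252 to 275 TPM summed to 324 to 525 TPM, and proximal tubule markers in 4 of 7, with the summed levels given above. Thick ascending limb markers rose in 3 of 4, from 481 to 861 TPM to 1609 to 2561 TPM. Macrophage markers rose in 1 and fell in 1 of 8, at 1537 to 2094 TPM in DKO kidneys. Adipocyte markers fell in 1 of 7, with a median log2 fold change of -2.58, and were at 46.9 to 336 TPM summed in DKO kidneys. In KI replicates 1, 2 and 3 they were at 136, 3120 and 276 TPM. Of 13 cathepsins tested 3 rose and 4 fell between these groups, of 13 carbonic anhydrases 5 rose and 1 fell, and of 13 type III receptors and ligands 2 rose and 2 fell. The part of the marker lists in the values of Ctsk, Car9 and Kit was not tested.

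**Figure D4:**
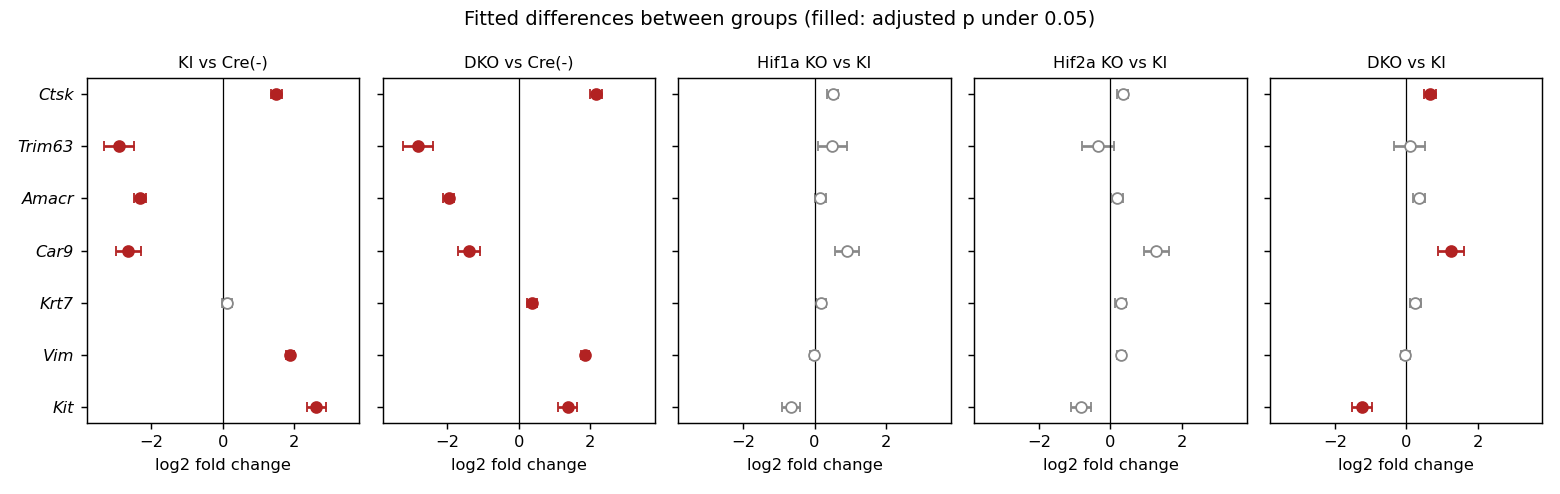
Log2 fold change (x axis) of each marker (rows) in 5 comparisons (panels), with bars of 1 SE. Filled red points were called at an adjusted p under 0.05 and open grey points were not. Filled points number 6 and 7 in the panels against Cre(-), 0 in each single knockout panel and 3 for DKO against KI.

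Hif1a KO and Hif2a KO kidneys were not told apart by the panel. In their direct comparison 0 of 7 markers were called by edgeR (0.429% of all genes tested) and 0 by DESeq2 (3.20%), and 1 had an unadjusted p under 0.05 (14.9% of all genes). This was Vim, lower in all 4 Hif1a KO than in all 3 Hif2a KO kidneys (-0.31 ± 0.11 SE on the log2 scale, adjusted p = 0.183), and groups did not overlap for 15.1% of all genes. Trim63 differed by 0.85 ± 0.41 SE (adjusted p = 0.345). A test of whether the change with Hif2a loss depended on Hif1a called 0 of 7 markers by edgeR (0% of all genes tested) and 0 by DESeq2 (0.182%), with 0 at an unadjusted p under 0.05 (5.95% of all genes).

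By level per length the panel spanned a wide range in every group. In Cre(-) kidneys Krt7 (93.8 ± 4.3 TPM, SD) and Amacr (84.4 ± 6.5 TPM) led, followed by Vim (31.9 ± 2.6 TPM), Trim63 (11.6 ± 2.05 TPM), Kit (9.17 ± 1.91 TPM), Car9 (4.78 ± 1.29 TPM) and Ctsk (3.00 ± 0.49 TPM). The first pair, Trim63 and Kit, and Car9 and Ctsk were neighbours whose ranges overlapped. In KI kidneys the order was Vim (160 ± 16 TPM), Krt7 (137 ± 23 TPM), Kit (79.9 ± 18.9 TPM), Amacr (23.3 ± 0.9 TPM), Ctsk (11.8 ± 1.2 TPM), Trim63 (1.80 ± 0.79 TPM) and Car9 (1.60 ± 1.15 TPM), with overlap between the first pair and between the last pair. In each knockout group Vim and Krt7 led with overlapping ranges, followed by Kit and Amacr, which overlapped in Hif1a KO (26.2 to 65.8 and 21.0 to 29.2 TPM) and in DKO kidneys (27.2 to 43.7 and 29.1 to 36.3 TPM) but not in Hif2a KO kidneys (44.2 to 46.8 and 22.3 to 33.7 TPM).

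The genes whose pattern was nearest to each marker were found by Pearson correlation of log2 CPM over the 17 libraries. For Kit they were Zfand5 (r = 0.983), Xdh and Adamtsl4, and without the Cre(-) libraries (n = 13) Zfand5 had r = 0.950. For Ctsk they were Shox2 (0.988), Bgn and Tnni3k, and for Vim Cd109 (0.988), Sorcs2 and Ccn5, of which Sorcs2 dropped to 0.601 over 13 libraries. Amacr was nearest to Mthfd1 (0.996), Lrpap1 and Lactb2, Car9 to Kcp (0.968), Ccdc189 and Hao2, and Trim63 as a whole gene to Fah (0.985) and Frg2f1. Krt7 had the weakest partners, Styk1 (0.904), Nipal1 and Atp8b1. Over the 13 libraries with Cre the partners of Vim had r from 0.601 to 0.791, and those of the other markers from 0.855 to 0.961. The libraries share depth and group, and these values are descriptions.

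Of 23 other renal tumor stains tested, 10 rose and 10 fell in KI against Cre(-) kidneys, with a median log2 fold change of -0.15. Gpnmb, a melanosomal and lysosomal glycoprotein gene used as a stain of tumors with MiT activity, went from 1.58 ± 0.52 to 14283 ± 1312 CPM (SD). Mme, which encodes CD10, the neprilysin of the proximal tubule brush border, went from 418 ± 38 to 55.7 ± 25.4 CPM, and Rhcg, an ammonia transporter of intercalated and connecting cells, from 144 ± 19.5 to 25.3 ± 6.6 CPM. The log2 fold change of Gpnmb was 13.13 ± 0.53 SE, beside 2.62 for Kit, the highest of the panel as whole genes.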

How the data were processed

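The authors deposited expected counts (estimates per transcript, not normalized between libraries) and, separately, TPM per transcript (scaled for transcript length and library total) for 17 kidney libraries of polyA RNA, read as single ends. Per the submitters' processing notes and the methods, reads were trimmed with Trim Galore 0.6.6 and cutadapt 2.5, aligned with STAR 2.7.9a and quantified with RSEM. The sources name both a human and the mouse build, and the files list mouse transcripts, so GRCm38 was used here.

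Transcripts were matched to GENCODE M21 without version numbers (116770 of 119353, 97.8%, holding 99.04% to 99.24% of each library's counts) and summed over 35971 genes. Summed expected counts were rounded. The main test was edgeR 4.0.16 (R 4.3.3), quasi-likelihood, TMM, filterByExpr (minimum count 10), in a single model of group means over the 17 libraries. P-values were adjusted by Benjamini-Hochberg over 17011 genes, with a threshold of 0.05. The paper names DESeq2, used here as an alternative (1.42.0). Others were limma 3.58.1 on log2(TPM + 1) and log2(TPM + 0.1), DESeq2's size factors, no filter, and a fit of the 2 groups alone. The rest were a replicate block, a minimum absolute log2 fold change of 1, either pair of Cre(-) libraries, and each library left out. Fits were tested on simulated data in which few genes changed. In KI against Cre(-) kidneys most genes were called, so that the simulation does not check those calls. Figures were drawn with matplotlib 3.10.9. CPM are means ± SD. Replicate numbers come from the titles. Depth was 16504419 to 24668827 counts per library, so that Car9 and Trim63, with 10 to 19 and 18 to 54 counts per KI library, are the least precise.

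The 7 markers are named with their values, together with, from each fixed list, up to 2 genes with the largest change in each direction in KI against Cre(-) that passed the threshold, had a mean of at least 1 TPM in either group and did not overlap, and the 3 genes most correlated with each marker, of which 1 is not reported here. Hif1a, Epas1, Tfe3 and Prcc were read as label checks, and the values of Prcc are not given here. The members and lists were chosen with earlier results of these data known. Promoters came from RefSeq.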

Additional observations from a re-analysis of the deposited data

How the results depend on the processing

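Of 644 values of single markers under alternatives, 590 kept direction and side of the threshold, 22 lost a call, 8 gained one and 24 changed sign, where most had no call. Summing protein-coding transcripts alone (added after the data were seen) gave Trim63 4.14 for KI against Cre(-), 2.99 for DKO against Cre(-), -0.010 for Hif1a KO against KI and -1.15 for DKO against KI, and for Hif1a KO against Hif2a KO 0.015 for Amacr and 0.014 for Krt7. That the forms differ is shown by their counts. Of the others the cause was not tested. On the TPM scale with either pseudocount Vim in DKO against KI was 0.083 and 0.084, and Kit in Hif1a KO against Hif2a KO -0.019 and -0.022. TPM also moved the share of higher genes among those called from 51.9% to 78.2% in KI against Cre(-) and to 69.9% in DKO against KI (51.3% by edgeR).

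With 1 library left out, 0 to 3 markers were called in DKO against KI, beside 4.18% to 13.2% of all genes tested. In Hif2a KO against KI these fits called 0 to 1 markers, beside 0.0751% to 4.96% of all genes tested. DESeq2 called 1 in Hif1a KO and 2 in Hif2a KO against KI. Uncalled values that changed sign ranged from -0.059 to 0.046 for Vim in Hif1a KO against KI, from -0.93 to 0.16 for Trim63 and -0.00087 to 0.31 for Amacr in Hif2a KO against KI, and from -0.20 to 0.60 for Trim63 and -0.064 to 0.041 for Vim in DKO against KI. In Hif1a KO against Hif2a KO they ranged from -0.19 to 0.16 for Amacr, -0.24 to 0.074 for Krt7 and -0.0079 to 0.32 for Kit. Over all genes DESeq2 called 1665 against 925 by edgeR in Hif1a KO, 1015 against 236 in Hif2a KO, 544 against 73 between them and 31 against 0 for the interaction.

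The replicate block left the counts of markers called at 6, 7, 0, 0 and 3 in the comparisons with Cre(-) and with KI, where it called 58.0%, 55.7%, 2.82%, 0.447% and 10.1% of all genes. The deviations of same-numbered libraries from their group means had correlations of -0.22 to 0.25. With groups of 3 or 4 this cannot tell whether the numbers pair the samples. Of 529 values of other named genes, 477 kept their side and 52 lost a call, and of these most were in DKO against KI or concerned Kitl. Groups of 3 or 4 libraries and the low counts of Car9 and coding Trim63 limit what could be called.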
